A study of Mus musculus with 12 samples.

Results

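The antiviral interferon-stimulated genes described here are 42 mouse genes that act against viruses or sense their nucleic acids, taken by symbol from both count tables of the series. All 42 were found among 32190 symbols and all 42 held enough counts for a test, among 13072 genes tested in bone marrow-derived dendritic cells (BMDCs) and 13040 tested in tumoral dendritic cells (DCs). The genes were read in 12 RNA-seq libraries, in 6 groups of 2. Tumoral DCs came from MC38 tumors, grown from a mouse colon carcinoma line, in mice with a Zbtb46-Tdtomato reporter and WT genotype, and were sorted late (day 14) or early (day 7). BMDCs came from mice labelled Pde5 knockout (Pde5-/-) or from WT mice. Each genotype was given 200 ng/ml lipopolysaccharide (LPS), the bacterial ligand of Toll-like receptor 4, for 12 h, or was left unstimulated. The sources used here give no strain, age, sex, sort gate or design of the knockout. They also do not say that replicate libraries are separate mice or cultures, and the spread behind each p-value may therefore be technical.

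Type I interferons are released by cells that sense microbial RNA, DNA or, through Toll-like receptor 4 and its adaptor Ticam1 (TRIF), LPS. They bind the Ifnar1 and Ifnar2 receptor, whose kinases Jak1 and Tyk2 activate transcription factors. These form a complex with Irf9 that binds the interferon-stimulated response element (ISRE) in promoters. The genes so induced make sensors of viral RNA, enzymes that degrade or edit RNA, proteins that hold back viral entry, translation or release, and brakes on the pathway itself. DCs express them after LPS, and the response is part of their maturation.

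Total counts were 16.1 to 19.7 M in the BMDC and 14.2 to 19.3 M in the tumoral libraries, and values are given as CPM, counts scaled to a library total of 1 M. Statements that libraries lay above or below others, or overlapped, refer to CPM, without the TMM scaling behind the edgeR fold changes. In BMDCs, Pde5a, the gene named in the knockout label, was counted 22 and 43 times in LPS-treated knockout-labelled libraries, against 52 and 20 times in LPS-treated WT libraries. Unstimulated, it was counted 47 and 61 times in knockout-labelled libraries, against 55 and 37 times in WT libraries. These ranges overlapped, and the genotype labels could not be told apart by this gene, whose counts can include reads outside a deleted stretch. The groups are therefore called knockout-labelled. The conventional DC markers were present in both kinds of cells, with 11 of 11 listed genes detected except Cd209a, which was at 0 in 3 LPS-treated BMDC libraries. Because the values come from bulk RNA, fewer cells of a type and less RNA per cell cannot be told apart.

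Promoter sequence is shown for 8 members, because the ISRE is the element through which this group of genes is known to be induced and 2 pairs of close paralogs among the members both hold it. RefSeq promoter windows (build GRCm38.p6, 250 bases before to 50 after the start site) matched 33 of the 42 members. The ISRE core was searched as GAAANNGAAA on both strands, with N for any base. It was found in 15 of the 33 members (45.5%), against 3.99% of all 27025 genes in the table. Over windows, it was found in 16 of 41 member windows (39.0%) and in 3.44% of all 32851 windows. Matches on the same promoter may overlap each other. The stretches below lie before the start site, are written 5′ to 3′ on the strand of the gene, and carry the ISRE core matches in capitals.
Isg15: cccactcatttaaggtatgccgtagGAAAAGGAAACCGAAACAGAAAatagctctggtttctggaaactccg
Bst2: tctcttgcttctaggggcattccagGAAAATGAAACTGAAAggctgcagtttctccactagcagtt
Rsad2: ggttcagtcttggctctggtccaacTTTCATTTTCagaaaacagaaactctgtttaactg
Ifit1: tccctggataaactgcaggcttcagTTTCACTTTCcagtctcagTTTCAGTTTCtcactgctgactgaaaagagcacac
Ifit3: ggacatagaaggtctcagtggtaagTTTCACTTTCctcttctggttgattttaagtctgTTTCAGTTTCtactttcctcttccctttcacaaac
Ifit3b: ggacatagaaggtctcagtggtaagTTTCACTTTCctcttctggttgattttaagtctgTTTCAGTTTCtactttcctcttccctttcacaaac
Oas1a: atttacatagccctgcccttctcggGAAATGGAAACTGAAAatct
Oas1g: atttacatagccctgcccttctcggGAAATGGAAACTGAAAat

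Isg15 (chr4:156200850-156200921, minus strand) held 3 overlapping matches, from 78 to 57 bases before its start site. Bst2 (chr8:71537562-71537627, minus strand) held 2 overlapping matches, and Rsad2 (chr12:26456538-26456597, minus strand) held 1 on the other strand, read as the reverse complement TTTCNNTTTC. Ifit1 (chr19:34640760-34640838), Ifit3 (chr19:34583348-34583441) and Ifit3b (chr19:34607744-34607837), all on the plus strand, each held 2 matches on the other strand. The printed stretches of Ifit3 and Ifit3b are letter for letter the same, and 86.2% of 218 bases aligned on the first match were equal. Oas1a (chr5:120907526-120907570) and Oas1g (chr5:120887614-120887656), both on the minus strand, held 2 overlapping matches within 20 bases of the start site. Of 248 bases aligned on the first match 63.7% were equal. Both shares were counted position by position without gaps, so an inserted or deleted base can lower them. Across the 15 members with a match, the median log2 fold change for LPS in WT BMDCs was 3.46 (range 0.96 to 5.50), and across the 18 without one it was 2.87 (range 0.87 to 4.62). These ranges overlapped, and a match in letters is a description, not a site of binding.

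**Figure D1:**
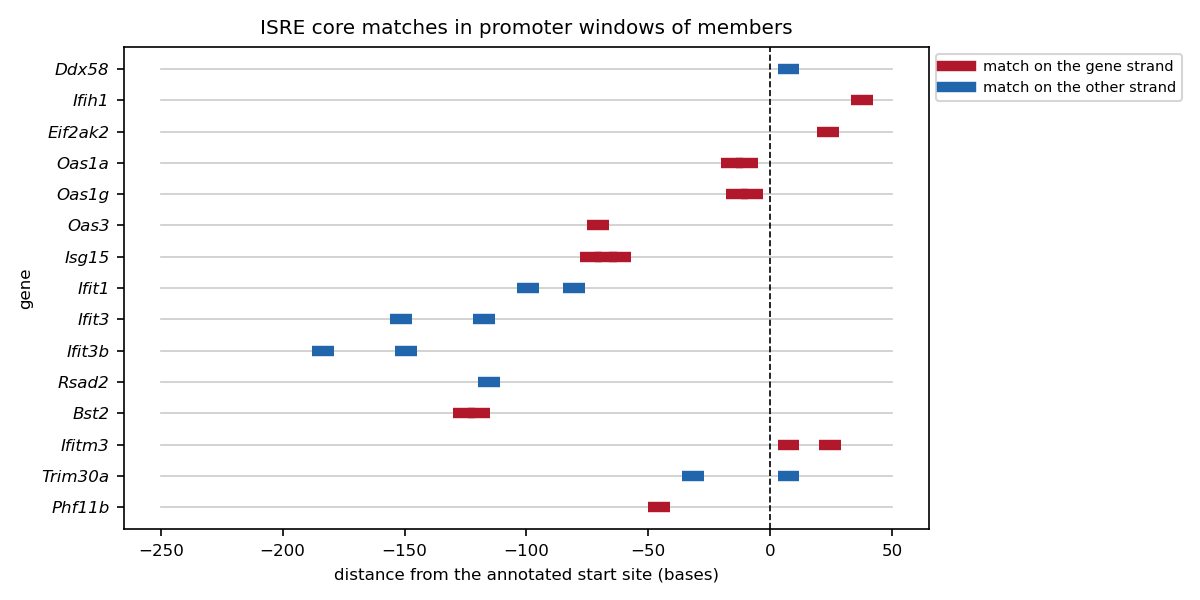
ISRE core matches (bars) in the promoter windows of the 15 members that held one, against the distance in bases from the annotated start site (dashed line); red bars are on the strand of the gene and blue bars on the other. Isg15, Bst2, Rsad2, Phf11b, Ifit1, Ifit3, Ifit3b, Oas1a, Oas1g and Oas3 carry their matches before the start site. Ifih1, Eif2ak2, Ddx58 and Ifitm3 carry them after it. Trim30a has a match before an annotated start site and another after a different start site, drawn on the same line.

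The first comparison asked how LPS changed these genes in WT BMDCs. All 42 members rose, by a median log2 fold change of 2.88 (range 0.87 for Samhd1 to 5.50 for Oas1g), and 40 rose more than 2-fold. Among all tested genes 20.0% were called higher and 17.6% lower at an edgeR adjusted p under 0.05, and the median log2 fold change was -0.02. Together the members held 1.27 and 0.932% of the counts of the LPS-treated WT libraries, against 0.267 and 0.287% in the unstimulated WT libraries. The 4 IFIT genes had the highest class median (log2 4.97), followed by the 6 OAS genes (3.45) and the 6 nucleic acid enzymes (3.32). The 3 membrane restriction factors had the lowest (1.88). DESeq2 and limma-voom also called 42 members higher, among 2402 and 2584 genes called higher.

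The second comparison set unstimulated knockout-labelled against unstimulated WT BMDCs. Again all 42 members were called higher, with a median log2 fold change of 2.02 (range 0.57 for Samhd1 to 4.38 for Oas1g), and 34 differed by more than 2-fold. Of all tested genes 12.0% were called higher and 5.98% lower. The members held 0.830 and 0.595% of the counts of the knockout-labelled libraries, against 0.267 and 0.287% in the WT libraries. This comparison and that of LPS in WT cells share the unstimulated WT libraries, so the values of both stand side by side below and are not independent of each other. Replicate 1 of the unstimulated knockout-labelled group was above replicate 2 for 42 of 42 members, by a median log2 of 0.56, whereas 43.0% of all genes were higher in replicate 1. Without replicate 1, 29 of the 42 members were called. Without replicate 2 of the unstimulated WT group, 35 were.

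Marker sums of some cell types differed between these groups, and those of others overlapped. The summed CPM of 5 neutrophil markers was 49.2 and 39.2 in LPS-treated knockout-labelled, 27.8 and 36.4 in LPS-treated WT, 47.4 and 59.2 in unstimulated knockout-labelled and 97.2 and 152 in unstimulated WT libraries, with Ly6g at 0 in 7 of the 8. The 11 conventional DC markers summed to 8862 and 8384, 8873 and 11081, 8782 and 12191 and 15050.3 and 16806 CPM in the same order of groups. Thus both sums were highest in the unstimulated WT libraries, where the antiviral genes were lowest, and their part in the result was not tested. The 7 macrophage and monocyte markers summed to 565 and 907, 1213 and 957, 1285 and 1257 and 1283 and 1422 CPM. The 7 plasmacytoid DC markers other than the member Bst2 summed to between 119 and 276 CPM, with Klk1 at 0 in 4 libraries. The 7 T and NK cell markers summed to between 14.7 and 29.5 CPM. The 3 B cell markers summed to between 1.56 and 3.97 CPM, and were also highest in the unstimulated WT libraries.

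In the third comparison, LPS-treated against unstimulated knockout-labelled BMDCs, no member was called. The median log2 fold change was 0.53 (range -0.09 for Ifitm3 to 0.86 for Herc6), and 41 of 42 values were above 0 with TMM scaling, or 40 with upper-quartile scaling or library size alone. EdgeR called 0% of all tested genes higher and 0% lower. At an unadjusted p under 0.05 it marked 16 members and 2800 genes. DESeq2 called 7 members higher, and of all tested genes 352 higher and 441 lower. Limma-voom called 0 members and 0 genes. In CPM both LPS-treated libraries lay above both unstimulated ones for 29 members (19.2% of all tested genes did so), and below them for 1, Ifitm3 (36.9% of all genes). Without replicate 1 of the unstimulated knockout-labelled group, edgeR called 8 members higher, among them Herc6, Parp9 and Dtx3l.

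In the fourth comparison, knockout-labelled against WT BMDCs that both had LPS, edgeR called no member and 0% of all genes higher and 0% lower. The median log2 fold change of the members was -0.34 (range -1.03 for Oas1g to 0.07 for Dtx3l), and 39 of 42 values were negative. At an unadjusted p under 0.05 edgeR marked 5 members and 1330 genes, and neither DESeq2 nor limma-voom called a member. Of all tested genes DESeq2 called 113 higher and 37 lower, and limma-voom called 0. Both knockout-labelled libraries were below both WT libraries for 16 members (20.9% of all tested genes), and above them for 0 (25.2% of all genes). The ratio of group means, knockout-labelled over WT, was 80.2% at the median member and lay between 49.7 and 106.5%.

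The interaction, which tests whether the LPS effect differed between genotype labels, was called negative for 36 of the 42 members (3.91% of all tested genes) and positive for none (0.566% of all genes). All 42 values were negative, with a median log2 of -2.33. Oas2, Usp18, Mx1, Samhd1, Dtx3l and Sp100 did not pass in edgeR. DESeq2 called all 42 members negative, these 6 included, among 828 genes, and limma-voom called 35 members among 454 genes. The test draws on all 4 BMDC groups, and it is not independent of the comparisons above. The count rests on single libraries: it was 4 (Zbp1, Oas1g, Isg15 and Mov10) without replicate 1 of the LPS-treated knockout-labelled group, 14 without replicate 1 of LPS-treated WT, 17 without replicate 1 of unstimulated knockout-labelled and 23 without replicate 2 of unstimulated WT BMDCs. Both unstimulated knockout-labelled libraries also lay below both LPS-treated WT libraries for 40 of 42 members, as for 13.9% of all tested genes, and above them for 0 (36.1% of all genes). At the median member the unstimulated knockout-labelled mean was 58.3% of the LPS-treated WT mean (range 32.5 to 102%).

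**Figure D2:**
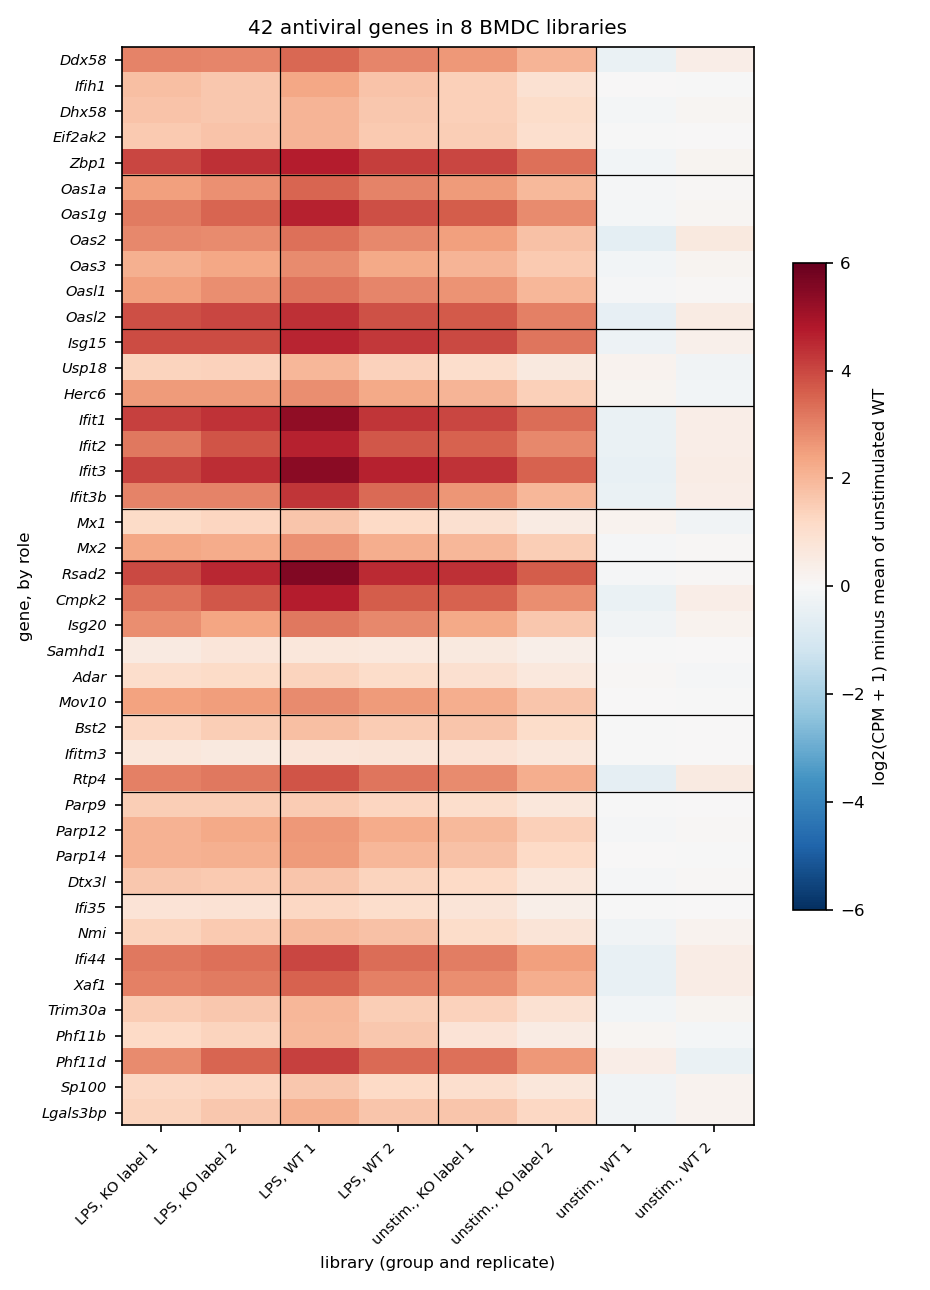
Log2(CPM + 1) of the 42 genes (rows, in blocks by role) in each of the 8 BMDC libraries (columns), minus the mean of the 2 unstimulated WT libraries. The 6 columns of the LPS-treated groups and of the unstimulated knockout-labelled group are red throughout, with Samhd1 among the palest rows. The unstimulated WT columns are near 0.

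**Figure D3:**
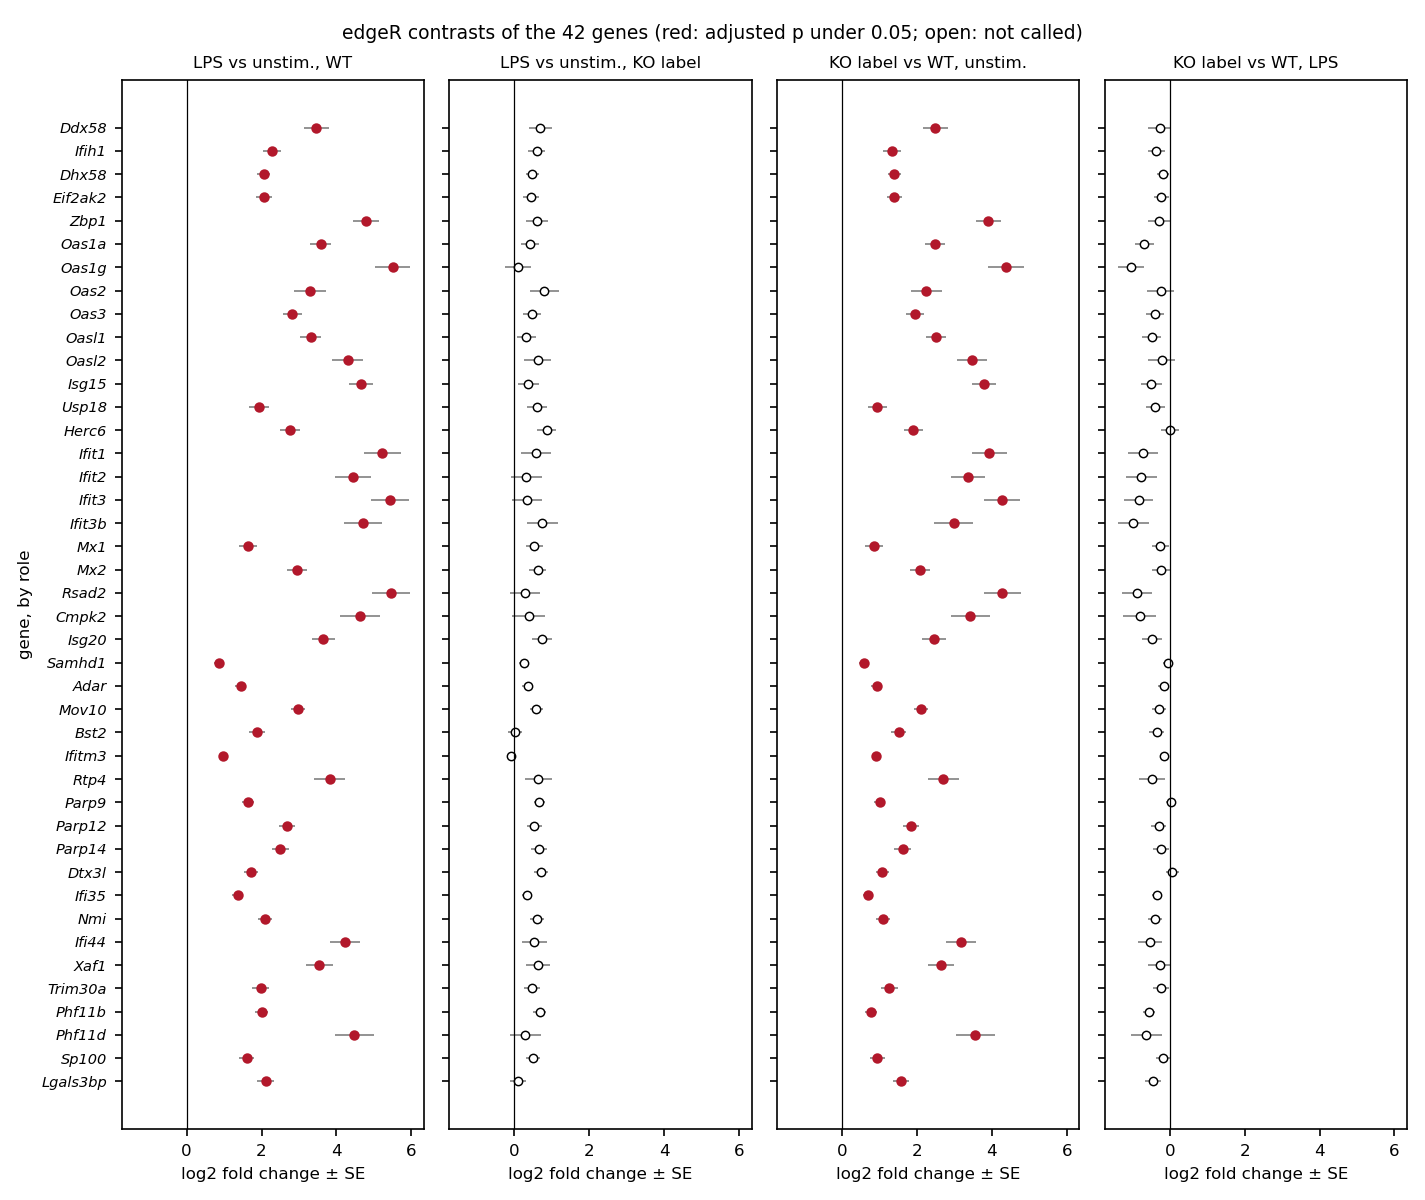
EdgeR log2 fold changes (points) with standard errors (lines) of the 42 genes in 4 contrasts, filled where the adjusted p was under 0.05 and open otherwise. All 42 points are filled for LPS in WT cells and for the knockout label without stimulation, and none is for LPS in knockout-labelled cells or for the knockout label under LPS. The panels for LPS in WT cells and for the knockout label without stimulation share the unstimulated WT libraries.

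Among the 5 RNA sensors, Zbp1, a sensor of left-handed nucleic acids that can trigger necroptosis, changed most. In LPS-treated cells Zbp1 had 184 and 242 CPM in the knockout-labelled libraries, against 305 and 204 CPM in the WT libraries. Unstimulated, Zbp1 had 182 and 114 CPM in the knockout-labelled libraries, against 9.12 and 12.1 CPM in the WT libraries. The 2 unstimulated WT libraries were the lowest of the 8, and the LPS-treated groups overlapped. Zbp1 had log2 fold changes of 4.79 ± 0.36 for LPS in WT cells (SE, edgeR adjusted p = 0.000342) and 3.91 ± 0.34 for the knockout label without stimulation (adjusted p = 0.0013). Dhx58 (LGP2) modulates the cytosolic RNA helicases RIG-I and MDA5. In LPS-treated cells Dhx58 had 151 and 141 CPM in the knockout-labelled libraries, against 186 and 139.9 CPM in the WT libraries. Unstimulated, Dhx58 had 123 and 96.7 CPM in the knockout-labelled libraries, against 41.8 and 48.1 CPM in the WT libraries. Both LPS-treated knockout-labelled libraries were above both unstimulated ones. Dhx58 had log2 fold changes of 2.06 ± 0.17 for LPS in WT cells (SE, edgeR adjusted p = 0.000282) and 1.40 ± 0.17 for the knockout label without stimulation (adjusted p = 0.00207). For Ddx58, which encodes RIG-I, the log2 fold change for LPS in WT cells was 3.46 ± 0.34, for Ifih1, which encodes MDA5, 2.28 ± 0.24, and for Eif2ak2, the kinase PKR that halts translation, 2.07 ± 0.21. For the knockout label without stimulation these 3 values were 2.49 ± 0.33, 1.33 ± 0.23 and 1.40 ± 0.21. All 5 sensors passed the interaction test, from -4.19 for Zbp1 to -1.58 for Dhx58.

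The 6 OAS genes encode oligoadenylate synthetases, which make the activator of the RNA-cleaving enzyme RNase L, and their relatives. In LPS-treated cells Oasl2 had 529 and 567 CPM in the knockout-labelled libraries, against 748 and 504 CPM in the WT libraries. Unstimulated, Oasl2 had 459.9 and 287 CPM in the knockout-labelled libraries, against 24.5 and 49.2 CPM in the WT libraries. Its 2 unstimulated WT libraries lay apart from the other 6, which ranged from 287 to 748 CPM. Oasl2 had log2 fold changes of 4.30 ± 0.41 for LPS in WT cells (SE, edgeR adjusted p = 0.000675) and 3.46 ± 0.40 for the knockout label without stimulation (adjusted p = 0.00321). Oasl1 encodes a relative that in mice represses translation of Irf7. In LPS-treated cells Oasl1 had 343 and 436 CPM in the knockout-labelled libraries, against 600.2 and 475 CPM in the WT libraries. Unstimulated, Oasl1 had 406 and 248 CPM in the knockout-labelled libraries, against 58.5 and 65.9 CPM in the WT libraries. Both LPS-treated knockout-labelled libraries were below both LPS-treated WT libraries. Oasl1 had log2 fold changes of 3.31 ± 0.27 for LPS in WT cells (SE, edgeR adjusted p = 0.000355) and 2.51 ± 0.27 for the knockout label without stimulation (adjusted p = 0.00167). Oas1g had the largest log2 fold change of all members for LPS in WT cells, 5.50 ± 0.47, and few counts in unstimulated WT cells, with 0.77 and 1.05 CPM, against 45.1 and 27.1 CPM in LPS-treated WT cells. Oas1a, whose promoter is printed beside that of Oas1g, had 127 and 86.7 CPM in LPS-treated WT libraries, against 9.54 and 11.0 CPM in unstimulated WT libraries. Of the 50-base stretches in Oas1a exons 57.6% also occur in Oas1g, so how reads were split between them is uncertain. For Oas2 and Oas3 the values were 3.30 ± 0.42 and 2.81 ± 0.25 for LPS in WT cells.

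In the ISG15 system, Isg15 encodes a ubiquitin-like protein that is attached to viral and host proteins. In LPS-treated cells Isg15 had 268 and 269 CPM in the knockout-labelled libraries, against 413 and 328 CPM in the WT libraries. Unstimulated, Isg15 had 274 and 161 CPM in the knockout-labelled libraries, against 13.4 and 20.7 CPM in the WT libraries. The unstimulated WT libraries were the lowest, and both LPS-treated knockout-labelled libraries lay below both LPS-treated WT libraries. Isg15 had log2 fold changes of 4.65 ± 0.33 for LPS in WT cells (SE, edgeR adjusted p = 0.000282) and 3.79 ± 0.32 for the knockout label without stimulation (adjusted p = 0.000984). Per length of exons, Isg15 averaged 355 ± 0.971 RPKM (reads per kilobase of exon and M reads, SD, n = 2) in LPS-treated knockout-labelled, 490.2 ± 78.9 in LPS-treated WT, 288 ± 105 in unstimulated knockout-labelled and 22.5 ± 6.80 RPKM in unstimulated WT cells. That made it the first member by RPKM in LPS-treated WT cells and number 10 in unstimulated WT cells. Herc6 is the main ligase for ISG15 in mice. In LPS-treated cells Herc6 had 201 and 199 CPM in the knockout-labelled libraries, against 231 and 162 CPM in the WT libraries. Unstimulated, Herc6 had 139.6 and 92.2 CPM in the knockout-labelled libraries, against 36.8 and 29.8 CPM in the WT libraries. Its LPS-treated knockout-labelled libraries lay inside the range of the LPS-treated WT libraries. Herc6 had log2 fold changes of 2.76 ± 0.26 for LPS in WT cells (SE, edgeR adjusted p = 0.000509) and 1.90 ± 0.26 for the knockout label without stimulation (adjusted p = 0.00409). Usp18, which removes ISG15 and restrains the interferon receptor, had the value nearest the threshold without stimulation, 0.95 ± 0.27 (edgeR adjusted p = 0.0491). It lost that call with every other scaling tried.

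The 4 IFIT genes lie together on chromosome 19 and encode proteins that bind viral RNA lacking host-type caps. In LPS-treated cells Ifit2 had 188 and 283 CPM in the knockout-labelled libraries, against 507 and 276 CPM in the WT libraries. Unstimulated, Ifit2 had 243 and 154 CPM in the knockout-labelled libraries, against 14.7 and 27.1 CPM in the WT libraries. The LPS-treated groups overlapped, and the unstimulated WT libraries were the lowest. Ifit2 had log2 fold changes of 4.44 ± 0.48 for LPS in WT cells (SE, edgeR adjusted p = 0.000973) and 3.36 ± 0.46 for the knockout label without stimulation (adjusted p = 0.00537). In LPS-treated cells Ifit1 had 142 and 169 CPM in the knockout-labelled libraries, against 336 and 167 CPM in the WT libraries. Unstimulated, Ifit1 had 135 and 84.2 CPM in the knockout-labelled libraries, against 5.51 and 9.99 CPM in the WT libraries. Replicate 1 of the LPS-treated WT group was the highest of the 8 libraries, and the unstimulated WT libraries were the lowest. Ifit1 had log2 fold changes of 5.23 ± 0.49 for LPS in WT cells (SE, edgeR adjusted p = 0.000607) and 3.94 ± 0.47 for the knockout label without stimulation (adjusted p = 0.00352). Ifit3 had 249.7 and 144 CPM in LPS-treated WT libraries, against 3.32 and 7.26 CPM in unstimulated WT libraries. Ifit3b had 48.0 and 25.2 CPM in LPS-treated WT libraries, against 0.889 and 2.36 CPM in unstimulated WT libraries. These 2 genes share 51.2% of the 50-base stretches of Ifit3, so their separate values are uncertain. Ifit1 and Ifit3b also overlap Ifit1bl1. All 4 passed the interaction test, from -5.10 for Ifit3 to -3.96 for Ifit3b.

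Mx1 and Mx2 encode dynamin-like GTPases that trap viral components. In LPS-treated cells Mx1 had 269 and 297 CPM in the knockout-labelled libraries, against 386 and 277 CPM in the WT libraries. Unstimulated, Mx1 had 239 and 171 CPM in the knockout-labelled libraries, against 138 and 106 CPM in the WT libraries. Mx1 was already above 100 CPM in unstimulated WT libraries. Mx1 had log2 fold changes of 1.64 ± 0.23 for LPS in WT cells (SE, edgeR adjusted p = 0.00175) and 0.85 ± 0.23 for the knockout label without stimulation (adjusted p = 0.0401). In LPS-treated cells Mx2 had 26.2 and 24.5 CPM in the knockout-labelled libraries, against 35.4 and 23.1 CPM in the WT libraries. Unstimulated, Mx2 had 20.6 and 14.2 CPM in the knockout-labelled libraries, against 4.15 and 4.65 CPM in the WT libraries. Its LPS-treated groups overlapped. Mx2 had log2 fold changes of 2.94 ± 0.27 for LPS in WT cells (SE, edgeR adjusted p = 0.000342) and 2.09 ± 0.27 for the knockout label without stimulation (adjusted p = 0.00241). The interaction was called for Mx2 (-2.32 ± 0.36) but not for Mx1 (-1.11 ± 0.32, edgeR adjusted p = 0.102). Whether these 2 interaction values differ was not tested.

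Of the 6 genes for nucleic acid or nucleotide enzymes, Samhd1, a phosphohydrolase that depletes deoxynucleotides, had the smallest log2 fold changes of all 42 members for LPS in WT cells and for the knockout label without stimulation. In LPS-treated cells Samhd1 had 1102 and 1279 CPM in the knockout-labelled libraries, against 1245 and 1191 CPM in the WT libraries. Unstimulated, Samhd1 had 1137 and 978 CPM in the knockout-labelled libraries, against 762 and 767 CPM in the WT libraries. The unstimulated WT libraries were close to each other and below the other 6. Samhd1 had log2 fold changes of 0.87 ± 0.13 for LPS in WT cells (SE, edgeR adjusted p = 0.00177) and 0.57 ± 0.13 for the knockout label without stimulation (adjusted p = 0.0213). Adar edits adenosines in double-stranded RNA. In LPS-treated cells Adar had 275 and 294 CPM in the knockout-labelled libraries, against 340.0 and 286 CPM in the WT libraries. Unstimulated, Adar had 262 and 206 CPM in the knockout-labelled libraries, against 139 and 126 CPM in the WT libraries. The LPS-treated groups overlapped. Adar had log2 fold changes of 1.44 ± 0.15 for LPS in WT cells (SE, edgeR adjusted p = 0.000443) and 0.92 ± 0.15 for the knockout label without stimulation (adjusted p = 0.00586). Mov10 is an RNA helicase that restricts retroviruses and mobile elements. In LPS-treated cells Mov10 had 111 and 117 CPM in the knockout-labelled libraries, against 149.6 and 124 CPM in the WT libraries. Unstimulated, Mov10 had 94.6 and 65.5 CPM in the knockout-labelled libraries, against 20.3 and 19.7 CPM in the WT libraries. Both LPS-treated knockout-labelled libraries were below both LPS-treated WT libraries and above both unstimulated knockout-labelled ones. Mov10 had log2 fold changes of 2.98 ± 0.20 for LPS in WT cells (SE, edgeR adjusted p = 0.000282) and 2.11 ± 0.19 for the knockout label without stimulation (adjusted p = 0.000894).

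Rsad2, or viperin, makes a nucleotide that stops viral RNA chains, and Cmpk2, a nucleotide kinase, is its neighbor on chromosome 12. Rsad2 had 167 and 243 CPM in LPS-treated knockout-labelled, 507 and 238 in LPS-treated WT, 223 and 131 in unstimulated knockout-labelled and 9.36 and 10.2 CPM in unstimulated WT libraries. Cmpk2 averaged 85.9 ± 20.0, 147 ± 76.5, 68.9 ± 24.5 and 6.93 ± 3.10 CPM in the same order of groups (SD, n = 2). For both genes replicate 1 of LPS-treated WT was more than 2-fold above replicate 2. Isg20, an exonuclease that degrades single-stranded RNA, had 29.0 and 23.6 CPM in LPS-treated WT libraries, against 1.95 and 2.85 CPM in unstimulated WT libraries.

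Bst2 (tetherin) holds budding virions at the cell surface. In LPS-treated cells Bst2 had 280.1 and 330.3 CPM in the knockout-labelled libraries, against 416 and 348 CPM in the WT libraries. Unstimulated, Bst2 had 377 and 255 CPM in the knockout-labelled libraries, against 119 and 120.0 CPM in the WT libraries. Its LPS-treated and unstimulated knockout-labelled libraries overlapped, with a log2 fold change of 0.02 ± 0.19 between them that fell below 0 with upper-quartile scaling or library size alone. Bst2 had log2 fold changes of 1.88 ± 0.20 for LPS in WT cells (SE, edgeR adjusted p = 0.000529) and 1.51 ± 0.20 for the knockout label without stimulation (adjusted p = 0.00305). Ifitm3 blocks fusion of viruses in endosomes. In LPS-treated cells Ifitm3 had 303 and 279.8 CPM in the knockout-labelled libraries, against 315 and 320.5 CPM in the WT libraries. Unstimulated, Ifitm3 had 347 and 304 CPM in the knockout-labelled libraries, against 185 and 191 CPM in the WT libraries. In CPM both LPS-treated knockout-labelled libraries were below both unstimulated ones, a separation not examined with TMM scaling. The log2 fold change between them, with TMM scaling, was -0.09 ± 0.10 and was not called. Ifitm3 had log2 fold changes of 0.96 ± 0.11 for LPS in WT cells (SE, edgeR adjusted p = 0.000501) and 0.90 ± 0.11 for the knockout label without stimulation (adjusted p = 0.0016). Bst2 and Ifitm3 were the 2 members whose unstimulated knockout-labelled libraries overlapped the LPS-treated WT libraries. Of the 629 stretches of 50 bases in Ifitm3 exons 63 occur in other genes. For Rtp4 the value for LPS in WT cells was 3.82 ± 0.42, and Rtp4 overlaps Masp1.

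By RPKM, Ifitm3 was the first member in every group except LPS-treated WT, with 429.6 ± 24.1 RPKM in LPS-treated knockout-labelled, 469 ± 5.86 in LPS-treated WT, 480.1 ± 44.2 in unstimulated knockout-labelled and 277 ± 6.93 RPKM in unstimulated WT cells (SD, n = 2). Bst2 had 338 ± 39.3, 423 ± 53.9, 350.2 ± 95.3 and 132 ± 0.792 RPKM in the same order of groups, second in both unstimulated groups and, behind Isg15 as well, the third in both LPS-treated ones. In LPS-treated WT cells the levels of Isg15, Ifitm3 and Bst2 differed by less than the SD of Isg15, so their order there is not resolved. Lgals3bp (221 ± 48.8 RPKM) and Oasl1 (206 ± 34.0 RPKM) came next. Ifi44 and Oas1g were among the lowest in unstimulated WT cells, at 0.539 and 0.39 RPKM.

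The 4 ADP-ribosylation genes include Parp14, a mono-ADP-ribosyltransferase, and Dtx3l, a ubiquitin ligase that works with Parp9. In LPS-treated cells Parp14 had 577 and 592 CPM in the knockout-labelled libraries, against 793 and 551 CPM in the WT libraries. Unstimulated, Parp14 had 463 and 316 CPM in the knockout-labelled libraries, against 138 and 135 CPM in the WT libraries. The LPS-treated groups overlapped, and both LPS-treated knockout-labelled libraries were above both unstimulated ones. Parp14 had log2 fold changes of 2.51 ± 0.23 for LPS in WT cells (SE, edgeR adjusted p = 0.000378) and 1.62 ± 0.22 for the knockout label without stimulation (adjusted p = 0.00371). In LPS-treated cells Dtx3l had 449 and 439 CPM in the knockout-labelled libraries, against 465 and 369 CPM in the WT libraries. Unstimulated, Dtx3l had 334 and 235 CPM in the knockout-labelled libraries, against 140.2 and 150.3 CPM in the WT libraries. The unstimulated WT libraries were the lowest. Dtx3l had log2 fold changes of 1.72 ± 0.19 for LPS in WT cells (SE, edgeR adjusted p = 0.000501) and 1.08 ± 0.18 for the knockout label without stimulation (adjusted p = 0.00678). Dtx3l overlaps Parp9, and their counts are uncertain to that extent. In knockout-labelled cells this class had the highest median log2 fold change for LPS, 0.66, with all 4 genes at an unadjusted edgeR p under 0.05 and none called. Parp9 had the smallest adjusted p of all members in that comparison (0.0823, log2 fold change 0.66 ± 0.15).

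The 9 other induced proteins include Lgals3bp, a secreted glycoprotein that binds galectins. In LPS-treated cells Lgals3bp had 426 and 516 CPM in the knockout-labelled libraries, against 727 and 531 CPM in the WT libraries. Unstimulated, Lgals3bp had 529.7 and 400.2 CPM in the knockout-labelled libraries, against 145 and 191 CPM in the WT libraries. The LPS-treated knockout-labelled libraries were below the LPS-treated WT libraries and overlapped the unstimulated knockout-labelled ones. Lgals3bp had log2 fold changes of 2.11 ± 0.22 for LPS in WT cells (SE, edgeR adjusted p = 0.000541) and 1.58 ± 0.22 for the knockout label without stimulation (adjusted p = 0.00375). Trim30a is a TRIM-family protein that restrains Toll-like receptor signalling in mice. In LPS-treated cells Trim30a had 374 and 398 CPM in the knockout-labelled libraries, against 528 and 369 CPM in the WT libraries. Unstimulated, Trim30a had 337 and 248 CPM in the knockout-labelled libraries, against 115 and 148 CPM in the WT libraries. Its LPS-treated groups overlapped. Trim30a had log2 fold changes of 1.98 ± 0.22 for LPS in WT cells (SE, edgeR adjusted p = 0.000704) and 1.26 ± 0.22 for the knockout label without stimulation (adjusted p = 0.00832). Phf11b belongs to a cluster of PHD-finger genes on chromosome 14. In LPS-treated cells Phf11b had 107 and 118 CPM in the knockout-labelled libraries, against 181 and 144 CPM in the WT libraries. Unstimulated, Phf11b had 82.3 and 66.0 CPM in the knockout-labelled libraries, against 50.2 and 42.9 CPM in the WT libraries. Both LPS-treated knockout-labelled libraries were below both LPS-treated WT libraries. Phf11b had log2 fold changes of 2.00 ± 0.17 for LPS in WT cells (SE, edgeR adjusted p = 0.000282) and 0.77 ± 0.17 for the knockout label without stimulation (adjusted p = 0.0165). Of its 50-base stretches 47.0% occur in other genes. For the other 6, Ifi35, Nmi, Ifi44, Xaf1, Phf11d and Sp100, values for LPS in WT cells lay between 1.37 for Ifi35 and 4.48 for Phf11d.

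**Figure D4:**
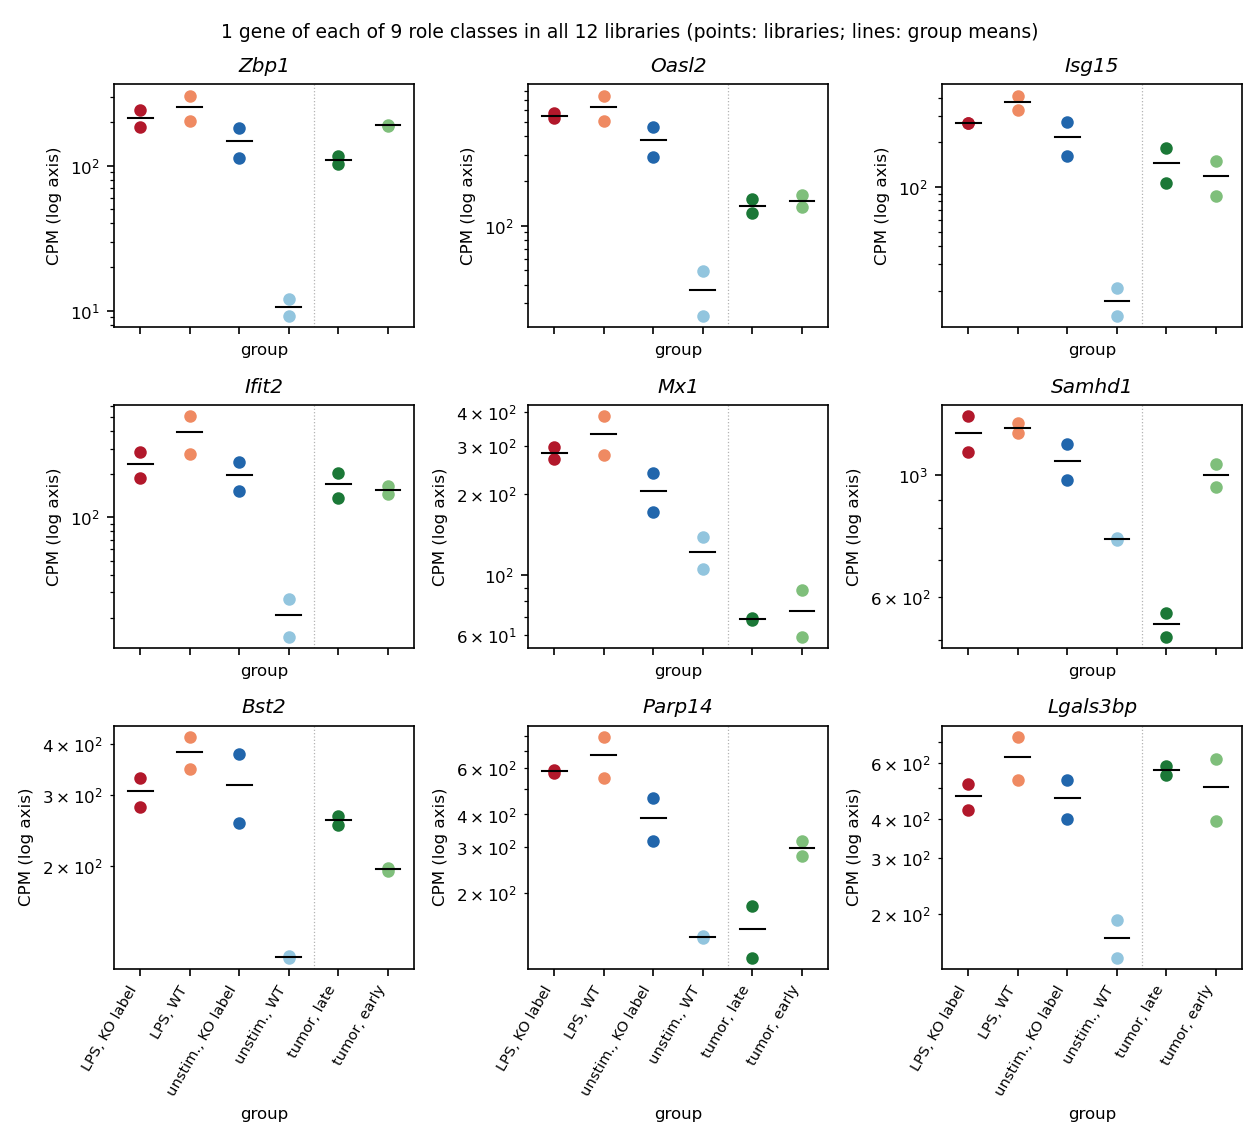
CPM (log axis) of 1 gene of each of the 9 role classes in all 12 libraries; points are libraries and lines group means, and the dotted line parts the separately counted BMDC and tumoral tables. In all 9 panels the unstimulated WT libraries are the lowest BMDC libraries, while Samhd1, Parp14 and Zbp1 have both late-stage tumoral libraries below both early-stage ones.

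The pathway that induces these genes was read from a list of 41 genes, of which 32 were tested in BMDCs. LPS in WT cells raised 20 and lowered 2 of them, with a median log2 fold change of 0.47. The knockout label without stimulation had 15 higher and 2 lower, with a median of 0.32. None of the 9 ligand genes passed the filter on counts in BMDCs. Ifnb1, the interferon-beta gene, had 0 and 0.0596 CPM in LPS-treated knockout-labelled and 0.056 and 0.0577 CPM in LPS-treated WT libraries, 1 read each where above 0, and no read in the unstimulated ones. No other type I or III interferon gene on the list had more than 1 read in a BMDC library, and Ifng had at most 0.834 CPM. Type I ligand transcripts were thus not detectable beyond single reads at this depth.

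Of 6 receptors and kinases, Ifnar2 and Ifngr1 fell after LPS in WT cells (log2 fold changes -0.99 ± 0.17 and -1.42 ± 0.12). Both were also lower with the knockout label without stimulation (-0.65 ± 0.17 and -0.51 ± 0.12). Ifngr1, a chain of the interferon-gamma receptor, had 109 and 104 CPM in LPS-treated knockout-labelled libraries, against 74.4 and 70.5 CPM in LPS-treated WT libraries. Unstimulated, it had 128 and 164 CPM in knockout-labelled and 207 and 239.8 CPM in WT libraries. It was the 1 pathway gene with a positive interaction, 1.05 ± 0.17 (edgeR adjusted p = 0.0167). Jak1, Tyk2 and Ifngr2 rose after LPS in WT cells (0.36 ± 0.11, 0.54 ± 0.11 and 0.36 ± 0.08). For Ifnar1 the value was -0.05 ± 0.08.

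Of 8 transcription factors, 7 rose after LPS in WT cells and 6 were higher with the knockout label without stimulation. Irf7, which amplifies interferon production, changed most. In LPS-treated cells Irf7 had 432 and 444 CPM in the knockout-labelled libraries, against 595 and 497 CPM in the WT libraries. Unstimulated, Irf7 had 384 and 253 CPM in the knockout-labelled libraries, against 21.2 and 32.2 CPM in the WT libraries. The unstimulated WT libraries stood far below the other 6. Irf7 had log2 fold changes of 4.56 ± 0.28 for LPS in WT cells (SE, edgeR adjusted p = 0.000282) and 3.69 ± 0.27 for the knockout label without stimulation (adjusted p = 0.000697). Stat2 and Irf9, subunits of the ISRE-binding complex, rose less. Stat2 had log2 fold changes of 1.88 ± 0.19 for LPS in WT cells and 1.46 ± 0.19 for the knockout label without stimulation. For Irf9 they were 1.45 ± 0.13 and 0.84 ± 0.13. Irf1 had 1.09 ± 0.18 and 0.80 ± 0.18, and Irf8, a factor of DC development, 0.66 ± 0.15 and 0.81 ± 0.15. Irf3 rose by 0.29 ± 0.10 for LPS in WT cells, and Irf5, at 0.01 ± 0.11, was not called. Among the factors named here, the interaction was called negative for Irf7, Stat2 and Irf9 (-4.03, -1.43 and -0.96).

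Among 6 brakes on the pathway, 4 rose in each of these comparisons, including Socs1 (1.48 ± 0.18 for LPS in WT cells and 0.98 ± 0.18 for the knockout label) and Socs3 (1.93 ± 0.33 and 2.22 ± 0.33). Of 12 genes that carry the signal from receptors to interferon production, 6 rose after LPS in WT cells, among them Traf3 (1.19 ± 0.15) and Ikbke (1.22 ± 0.21). With the knockout label without stimulation 5 were higher. Of 35 tested interferon-stimulated genes outside the 42, 29 rose after LPS in WT cells and 23 were higher with the knockout label, with no gene lower in either. Helz2, a helicase cofactor, had log2 fold changes of 2.93 ± 0.23 and 2.98 ± 0.23, and Sp140, a nuclear body protein, 1.93 ± 0.17 and 1.93 ± 0.17. For Ube2l6, the enzyme that passes ISG15 to its ligases, they were 1.55 ± 0.14 and 0.84 ± 0.13. In LPS-treated against unstimulated knockout-labelled cells, and in knockout-labelled against WT cells under LPS, edgeR called none of the pathway genes or of these 35. At an unadjusted p under 0.05 it marked 11 and 4 of the 32 tested pathway genes, and 14 and 4 of the 35. Of all 13072 tested genes it marked 2800 and 1330 in these comparisons.

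The last comparison set late-stage (day 14) against early-stage (day 7) tumoral DCs, and no member was called. The members held 0.525 and 0.442% of the counts of late-stage libraries, against 0.535 and 0.605% in early-stage libraries. Their median log2 fold change was -0.01, with 22 of 42 values negative, and 20 to 28 negative under the other scalings. EdgeR called 0% of all tested genes higher and 0.0230% lower. At an unadjusted p under 0.05 it marked 5 members and 1438 genes. DESeq2 called 1 member lower (Samhd1), and of all tested genes 80 higher and 231 lower. Limma-voom called 0 members, and of all tested genes 8 higher and 16 lower. The spread between tumoral libraries was larger than between BMDC libraries (biological coefficient of variation 0.278, against 0.138), and differences of 2-fold were mostly not detectable at this spread. In CPM both late-stage libraries were below both early-stage ones for 19 members (28.4% of all tested genes) and above them for 2, Ifit3b and Bst2 (13.7% of all genes).

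The 4 members with the smallest p all had negative log2 fold changes. Parp14 had 179 and 114 CPM in late-stage libraries, against 278 and 317 CPM in early-stage libraries. Samhd1 had 562 and 507 CPM in late-stage libraries, against 950.3 and 1046 CPM in early-stage libraries. Zbp1 had 117 and 103 CPM in late-stage libraries, against 187 and 192 CPM in early-stage libraries. For each of the 3 both late-stage libraries were below both early-stage ones, with log2 fold changes of -0.94 ± 0.27, -0.81 ± 0.23 and -0.69 ± 0.22. Sp100, a nuclear body protein, had 135 and 102 CPM in late-stage libraries, against 184 and 209 CPM in early-stage libraries. Its late-stage libraries were also both below, with a log2 fold change of -0.64 ± 0.24. Such a separation held for 28.4% of all tested genes, and these 4 members were picked by their p. None of the 4 passed, with edgeR adjusted p of 0.284, 0.285, 0.319 and 0.4. Without replicate 1 of the early-stage group 5 members were called lower (Ifih1, Eif2ak2, Samhd1, Parp14 and Sp100), and without replicate 2 of that group 2 were called higher (Isg15 and Rsad2).

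By role, all 5 RNA sensors (median log2 -0.69) and all 4 ADP-ribosylation genes (median -0.45) had negative values under all 4 scalings. In CPM both late-stage libraries of these 9 genes lay below both early-stage ones, as in 28.4% of all tested genes. TMM factors were 0.997 and 0.933 in late-stage and 1.11 and 0.968 in early-stage libraries. The separation was not examined with these factors and may not hold for every gene. Ifih1 had 67.4 and 38.5 CPM in late-stage libraries, against 70.0 and 117 CPM in early-stage libraries. Eif2ak2 had 52.0 and 23.0 CPM in late-stage libraries, against 68.2 and 71.6 CPM in early-stage libraries. Values of the IFIT genes were positive for 3 of 4 under all 4 scalings. Ifit2 had 204 and 136 CPM in late-stage libraries, against 146 and 165 CPM in early-stage libraries, and Ifit1 had 61.8 and 23.9 CPM in late-stage libraries, against 31.4 and 69.1 CPM in early-stage libraries, so both overlapped between stages. The OAS genes had 4 of 6 positive values with TMM and 2 of 6 with library size alone. Isg15 had 183 and 107 CPM in late-stage libraries, against 86.9 and 149.7 CPM in early-stage libraries, and Oasl2 had 152 and 121 CPM in late-stage libraries, against 133 and 159.7 CPM in early-stage libraries, again with overlap.

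Bst2 had 253 and 265 CPM in late-stage libraries, against 198 and 195 CPM in early-stage libraries, a log2 fold change of 0.50 ± 0.22 (edgeR adjusted p = 0.45), so both late-stage libraries were higher. Ifitm3 had 429.9 and 436 CPM in late-stage libraries, against 464 and 613 CPM in early-stage libraries, and was the first member per length, at 638 ± 5.97 RPKM late and 795 ± 155 RPKM early (SD, n = 2). Lgals3bp had 587 and 551 CPM in late-stage libraries, against 616 and 394 CPM in early-stage libraries, with overlap. Rsad2 varied most between early-stage libraries, with 471 and 324 CPM in late-stage libraries, against 154 and 418 CPM in early-stage libraries. The remaining named members are given by their late-over-early log2 values alone. These were -0.10 ± 0.21 for Dhx58, 0.02 ± 0.27 for Oasl1, -0.47 ± 0.32 for Herc6, -0.01 ± 0.28 for Mx1, 0.13 ± 0.37 for Mx2, 0.02 ± 0.21 for Adar, 0.22 ± 0.23 for Mov10, -0.46 ± 0.22 for Dtx3l, -0.33 ± 0.24 for Trim30a and -0.24 ± 0.21 for Phf11b.

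**Figure D5:**
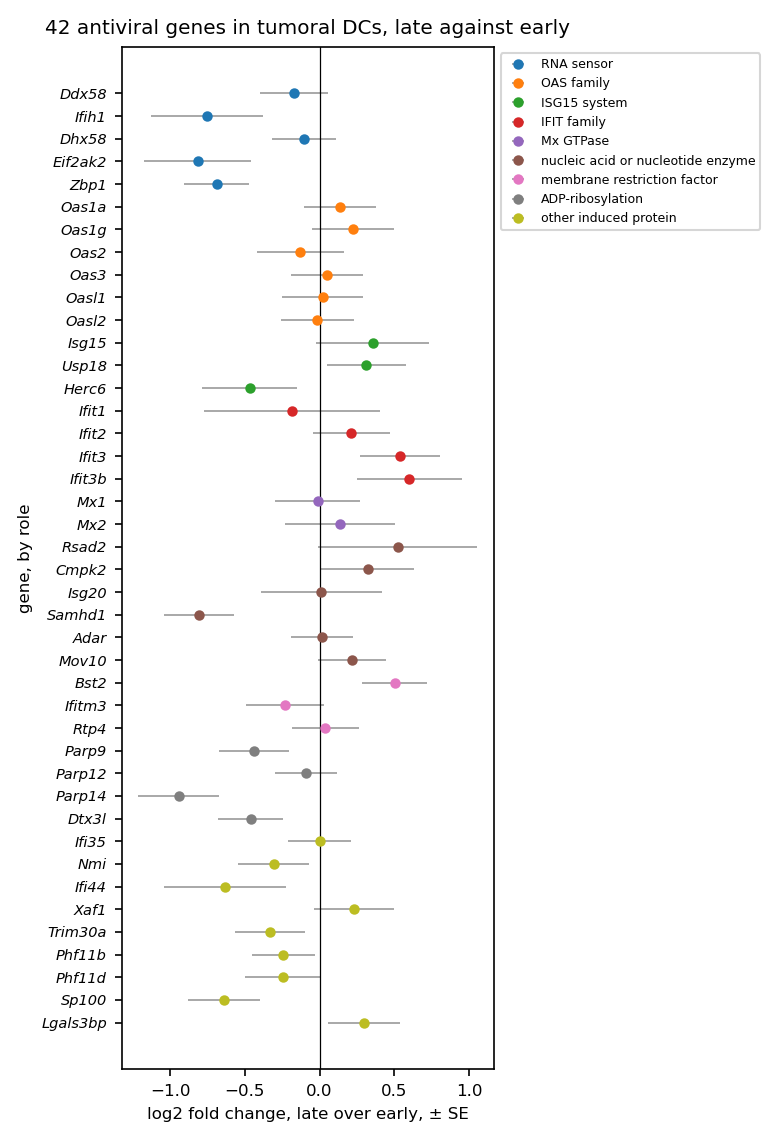
EdgeR log2 fold changes of the 42 genes, late-stage over early-stage tumoral DCs (points, with standard errors as lines), colored by role. RNA sensors and ADP-ribosylation genes lie left of 0, 3 of 4 IFIT genes right of it, and no gene was called.

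Of 34 pathway genes tested in tumoral DCs none was called, and 3 were marked at an unadjusted edgeR p under 0.05. The same cut marked 1438 of all 13040 tested genes. The ligands were Ifnb1, with 12.8 and 10.03 CPM in late-stage libraries, against 2.75 and 3.37 CPM in early-stage libraries, and Ifng, the interferon-gamma gene, with 10.4 and 4.80 CPM in late-stage libraries, against 32.2 and 26.4 CPM in early-stage libraries. In both the stages did not overlap, and their log2 fold changes were 1.99 ± 0.39 and -1.85 ± 0.37 (edgeR adjusted p = 0.124 and 0.129). Irf1, a target of interferon-gamma, had 248 and 157 CPM in late-stage libraries, against 489.7 and 369 CPM in early-stage libraries (-0.98 ± 0.26, adjusted p = 0.256). Irf7 had 336 and 246 CPM in late-stage libraries, against 267 and 327 CPM in early-stage libraries. The other factors named had log2 values of -0.19 ± 0.23 for Stat2, 0.01 ± 0.21 for Irf9, 0.41 ± 0.23 for Irf3, 0.16 ± 0.24 for Irf5 and -0.01 ± 0.23 for Irf8. Receptor and kinase values lay between -0.61 for Ifngr1 and 0.41 for Ifngr2.

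Marker sums were lower in both late-stage libraries for the T and NK cell, fibroblast and endothelial, plasmacytoid DC and B cell sets. They overlapped between stages for the macrophage and monocyte set and the neutrophil set. The 11 conventional DC markers also overlapped, with 12368 and 15642 CPM in late-stage libraries, against 14775 and 18092 CPM in early-stage libraries. The summed CPM of 7 T and NK cell markers was 190.2 and 88.0 in late-stage libraries, against 948 and 692 in early-stage libraries, with none of the 7 at 0. That of 4 fibroblast and endothelial markers was 161 and 82.7 late and 470.5 and 248 early. The 7 macrophage and monocyte markers summed to 7123 and 8194 CPM late and 7702 and 4042 CPM early, and the 5 neutrophil markers to 147 and 9.18 CPM late and 14.7 and 25.9 CPM early. Plasmacytoid DC markers summed to 188 and 100.19 CPM late and 204 and 252 CPM early. The 3 B cell markers had few reads, with sums of 1.20 and 0.353 CPM late and 1.81 and 2.61 CPM early. The part of these cell types in the values of Parp14, Samhd1, Zbp1, Sp100 and Ifng was not tested.

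Set side by side without a test, since the tables were counted and scaled separately, mean CPM in early-stage tumoral DCs was above that in unstimulated WT BMDCs for 37 of the 42 members and below it for Adar, Dtx3l, Herc6, Mx1 and Usp18. It was above the mean of LPS-treated WT BMDCs for 2 members, Ifitm3 and Phf11d. The share of all genes that lay above was not computed, so these counts have no background beside them. Marker sums differed as well. Macrophage and monocyte markers summed to 7702 and 4042 CPM in early-stage tumoral and 1283 and 1422 CPM in unstimulated WT BMDC libraries. T and NK cell markers summed to 948 and 692, against 14.7 and 21.6 CPM. Conventional DC markers overlapped. Their part in the levels was not tested. Across the 42 members the median ratio of early-stage tumoral over unstimulated WT BMDC means was 2.57 (range 0.604 to 29.2). Over LPS-treated WT BMDC means it was 50.5% (range 15.6 to 169.7%).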

How the data were processed

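Total RNA of 12 samples was made into Illumina TruSeq libraries, per the labels' protocols, whose extraction text names another tissue. The authors deposited raw counts, 1 row per gene symbol. Per the submitters' processing notes, fastp 0.12.4, HISAT2 2.2.1, featureCounts 2.0.1 and build mm10 were used. Annotation, strand setting and multi-mapping rules are not given in the sources, so overlapping genes and paralogs cannot be told apart fully. Every count column was mapped to a sample through its name.

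Each table was fitted with edgeR 4.0.16 (R 4.3.3, TMM scaling, filterByExpr with a minimum count of 10, glmQLFit robust, glmQLFTest), all 8 BMDC libraries in 1 fit and the 4 tumoral ones in another. P-values were adjusted by Benjamini-Hochberg over all tested genes and called under 0.05. The interaction is the LPS effect in knockout-labelled minus that in WT cells. DESeq2 1.42.0, limma-voom (limma 3.58.1), other scalings, no filter, a replicate block, summed paralogs, the 4 compared libraries alone and leaving out each library were alternatives. The SE of a log2 fold change is its size over the root of F. RPKM used exon lengths of GENCODE M21, and promoters came from RefSeq. 1 gene of the pathway list enters the counts but is not reported here by name. Members, gene lists and alternatives were chosen with earlier results of these data known. Named members were the 2 most abundant of each role class by mean CPM over BMDCs, the 2 called members with the smallest p per comparison and direction, and, for tumor stage, the 4 with the smallest p. On simulated counts for LPS in WT BMDCs (13072 genes) 83% of 2-fold and 99% of 4-fold changes were called, with 10.8% of calls false. For late against early tumoral DCs (13040 genes) these were 17%, 88% and 15.3%. Precision is limited by the 2 libraries per group and, for members with few reads such as Oas1g (13 and 17 counts in unstimulated WT libraries), by counting error.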

Additional observations from a re-analysis of the deposited data

Results flagged for a closer look

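The LPS effect differed between genotype labels. For 36 of the 42 members the effect in knockout-labelled BMDCs was lower than in WT BMDCs by edgeR's interaction test at an adjusted p under 0.05, and this difference is what drew attention to each gene named here. On the log2 scale the differences were -4.65 for Ifit1, -4.28 for Isg15, -4.19 for Zbp1, -4.12 for Ifit2, -3.67 for Oasl2 and -2.99 for Oasl1. They were -2.39 for Mov10, -2.32 for Mx2, -2.02 for Lgals3bp, -1.90 for Herc6, -1.86 for Bst2, -1.85 for Parp14 and -1.58 for Dhx58. The smallest among the genes named here were -1.50 for Trim30a, -1.33 for Phf11b, -1.08 for Adar and -1.05 for Ifitm3. All were measured over the same 8 libraries, and unstimulated levels were higher in the knockout-labelled libraries for each of these genes. The count was 4 without replicate 1 of the LPS-treated knockout-labelled group and 14 without replicate 1 of the LPS-treated WT group. Groups of 2 were too small to look for single outlying libraries.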

How the results depend on the processing

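All 42 members kept their call for LPS in WT BMDCs under every alternative run. The call for the knockout label without stimulation held for 41 members (Usp18 lost) with DESeq2's size factors, upper-quartile scaling or library size alone, for 38 with no filter on low counts or with only the 4 libraries compared, and for 29 to 42 when 1 library was left out. The interaction count was 36, 42 with DESeq2, 35 with limma-voom, and 4 to 40 when 1 library was left out, with its direction kept by all 42 members. For LPS in knockout-labelled BMDCs 0 members were called, 3 with no filter on low counts (Parp9, Dtx3l and Phf11b), 7 with DESeq2, 3 with the replicate block (Herc6, Parp9 and Phf11b) and 0 to 8 when 1 library was left out. For late against early tumoral DCs 0 members were called lower, 3 with no filter (Eif2ak2, Samhd1 and Parp14), 1 (Samhd1) with DESeq2 and 0 to 5 when 1 library was left out, and 0 to 2 were called higher. The cause of these changes was not tested. For the knockout label under LPS 0 members were called in every alternative. Summing Ifit3 with Ifit3b, Oas1a with Oas1g and Phf11b with Phf11d left 39 of 39 units called for LPS in WT cells and for the knockout label, and 33 for the interaction. Same-numbered libraries had correlations of their deviations between -0.20 and 0.28, above 0.1 for 3 of 6 pairs of BMDC groups, and the labels give no shared source, so the numbers were not treated as pairs. With the replicate block the interaction count was 32, and the calls for LPS in WT cells and the knockout label without stimulation stayed at 42. With library size alone the median log2 value of all genes was -0.23 for LPS in WT cells, against -0.02 with TMM. It was -0.11 for the knockout label without stimulation, against -0.01, and 0.12 for the interaction, against -0.01. With 2 libraries per group, a pooled spread is assumed for a lone library left in a group.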

Other observations

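Close relatives of the members that were not among the 42 were also measured. Of 20 such genes 14 were tested in BMDCs. LPS in WT cells raised 9 and lowered 1, and the knockout label without stimulation had 7 higher and 0 lower. Among those that rose after LPS in WT cells were Oas1b (3.22 ± 0.34), Ifit1bl1 (3.38 ± 0.36), Phf11a (2.12 ± 0.23), Trim30d (2.71 ± 0.26) and Trim30c (3.83 ± 0.48), on the log2 scale with SE. Ifitm2, a neighbor of Ifitm3, had 0.11 ± 0.19 and was not called. Parp1, a DNA repair enzyme, fell by 0.70 ± 0.14 on the log2 scale, and Adarb1, an editing enzyme, had -0.23 ± 0.41. Some of these relatives share sequence with members, and their counts are uncertain to that extent. Of the 50-base stretches of Phf11b 26.0% occur in Phf11a, and of those of Trim30a 5.98% occur in Trim30d. Adar and Parp9 share no such stretch with another gene.

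Within each group most members differed between replicates in the same direction, though only in unstimulated knockout-labelled cells did all 42. In the LPS-treated WT group replicate 1 was above replicate 2 for 41 of 42 members, by a median log2 of 0.50, and in late-stage tumoral DCs for 34. In LPS-treated knockout-labelled cells it was above for 11, in unstimulated WT cells for 9 and in early-stage tumoral DCs for 12. Of all tested genes 48.5% were higher in replicate 1 in LPS-treated WT cells and 59.2% in late-stage tumoral DCs. The share was 53.6% in LPS-treated knockout-labelled cells, 42.7% in unstimulated WT cells and 66.0% in early-stage tumoral DCs.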
